A study of Homo sapiens with 5 samples.

Results

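The genes that encode the proteins of the cytosolic ribosome were examined in the H2A-K130ac peak lists of C4-2B cells. Members were the protein-coding genes whose symbol is RPL or RPS and a number, with A, X or L as the only letter allowed after it, together with RPLP0, RPLP1, RPLP2 and RPSA; pseudogenes were left out. The rule found 81 genes among 20052 protein-coding genes: 46 of the large subunit, 31 of the small subunit and 4 paralogs, which are RPL3L, RPL10L, RPL39L and RPS27L. Of these, 55 genes were named by at least 1 annotated peak. They took 90 of 67806 annotated peaks in the abiraterone list (0.133%, exact 95% binomial interval 0.107 to 0.163%) and 109 of 91398 in the Romidepsin list (0.119%, 0.0979 to 0.144%). Unless stated otherwise, shares of genes are of the 77 subunit genes.

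The study performed ChIP-seq with an antibody to H2A-K130ac, an acetylated lysine in the C-terminal tail of histone H2A. C4-2B, used in the study as a castration-resistant prostate cancer cell line, was treated either with abiraterone, an inhibitor of androgen synthesis, or with Romidepsin, an inhibitor of histone deacetylases, and each treatment is represented by 1 library. The labels call C4-2B a breast cancer line, give neither dose nor duration for it, and describe only VCaP cells under 0.5 µM Romidepsin overnight. No untreated C4-2B library is part of this comparison, and the 3 VCaP samples (DMSO, Romidepsin and input) were not analysed here.

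With 1 library per treatment, no difference between treatments could be tested, and the values describe these libraries. Each peak carries the authors' fold over the control and a −log10 q-value. The control is named as input in the deposited lists and as the vehicle-treated sample in the study's summary form, so that what the folds are relative to is not settled. The peaks carry no read count, so that the depth behind a peak is unknown and folds were not compared between the lists. Intervals are exact binomial or Poisson intervals that cover counting error only. Of the prostate marker genes KLK3, KLK2, HOXB13 and FOLH1, 3 of 4 had an annotated peak in the abiraterone list and 1 in the Romidepsin list; among them only HOXB13, in the abiraterone list, had one within 1 kb of its start. A peak list does not measure expression, so the identity of the cells was not checked by these genes. Peak coordinates are those of hg19, judged from their extent and from the transcript identifiers, although the submitters' notes list hg38.

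Ribosomal proteins wrap the ribosomal RNAs: the small subunit reads the messenger RNA, and the large subunit joins amino acids and releases the chain through its exit tunnel. Their genes are short and are among the most actively transcribed in a dividing cell. Many of their messenger RNAs start with a C followed by a run of pyrimidines, the terminal oligopyrimidine tract, through which their translation follows mTOR signaling. Acetylated histones are usually studied at such active start sites, and for this gene family the comparison asks how often an H2A-K130ac peak lay there.

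The start regions of the 7 subunit genes that carried a peak in the promoter class within 1 kb are shown because the main comparison turns on them. RefSeq promoter sequences (GRCh38.p14) were matched for 64 of the 81 genes, with 79 start sites. Each line gives 40 bases before and 20 bases from the annotated start, 5′ to 3′ on the plus strand, with the pyrimidine run that begins at the start base in capitals where it holds at least 5 bases. These positions belong to another build than the peaks and are not to be compared with peak coordinates.
RPL10 (chrX:154398337-154398396): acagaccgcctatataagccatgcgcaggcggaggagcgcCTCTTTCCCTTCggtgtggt
RPL38 (chr17:74203638-74203697): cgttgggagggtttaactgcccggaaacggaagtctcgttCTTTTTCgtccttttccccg
RPS26 (chr12:56041878-56041937): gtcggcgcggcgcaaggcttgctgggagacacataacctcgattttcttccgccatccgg
RPL36 (chr19:5690255-5690314): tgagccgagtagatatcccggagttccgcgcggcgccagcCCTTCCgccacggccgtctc
RPL7A (chr9:133348178-133348237): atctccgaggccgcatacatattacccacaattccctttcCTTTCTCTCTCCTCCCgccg
RPL11 (chr1:23691766-23691825): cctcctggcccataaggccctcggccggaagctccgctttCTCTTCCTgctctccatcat
RPL10A (chr6:35468361-35468420): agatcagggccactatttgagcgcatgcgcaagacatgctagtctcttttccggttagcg

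Of the 7 genes, 5 had the run, 16 bases long in RPL7A and 12 in RPL10, whereas RPS26 and RPL10A had none at the annotated start. Over the family, 46 of the 64 genes with a sequence (71.9%, 59.2 to 82.4%) had at least 1 start with such a run, against 5.97% of 15778 other protein-coding genes 6.24% of all of them and 8.70% of the mitochondrial ribosomal protein genes. By sequence, 58.2% of the family's 79 starts and 4.54% of all 22198 protein-coding starts held it. Among the 57 members without a peak within 1 kb, 71.9% had the run, a share like the 71.4% (29.0 to 96.3%) of the 7 with a peak. The letters CGGAAG, the core bound by ETS-family factors, occurred on either strand of the 300 bases around a start in 64.1% of the family's genes (51.1 to 75.7%), 55.1% of the mitochondrial ribosomal protein genes (42.6 to 67.1%) and 29.7% of all genes, while TATAAA, searched in the same way, occurred in 9.38% and 12.4%. These counts describe letters in the window, and no binding was measured.

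In the abiraterone list 36 of the 77 subunit genes had at least 1 annotated peak at any distance (46.8%, 35.3 to 58.5%), where 56.6% of all protein-coding genes had one. In the Romidepsin list they were 37 (48.1%, 36.5 to 59.7%), below the 68.7% of all protein-coding genes, which lies above that interval. By subunit these were 22 of 46 large (47.8%, 32.9 to 63.1%) and 14 of 31 small subunit genes (45.2%, 27.3 to 64.0%) in the abiraterone list, and 21 (45.7%) and 16 (51.6%) in the Romidepsin list. The paralogs had 0 peaks in the abiraterone list; in the Romidepsin list RPL10L and RPL39L, both known from testis, and RPS27L, a p53 target, had 1, 1 and 2 peaks, all distal intergenic. RPL3L, the muscle form of RPL3, had none in either list.

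The lists shared 21 subunit genes, which are 58.3% of the abiraterone list's genes and 56.8% of the Romidepsin list's. They make up 27.3% of the family (17.7 to 38.6%). Over all protein-coding genes 48.9% had a peak in both lists, which are 86.4% of the genes of the abiraterone list and 71.2% of those of the Romidepsin list. Named in both were RPL9, RPL14, RPL15, RPL21, RPL22, RPL24, RPL32, RPL34, RPL35A, RPL36, RPL37A and RPL38 of the large subunit, and RPS3A, RPS4X, RPS13, RPS14, RPS16, RPS20, RPS23, RPS24 and RPS29 of the small subunit. A peak in either list was found for 52 subunit genes (67.5%, 55.9 to 77.8%; all protein-coding genes 76.4%), 15 of them in the abiraterone list alone and 16 in the Romidepsin list alone. No peak in either list carried the name of the remaining 25 subunit genes. Among these were the complete stalk of the large subunit (RPLP0, RPLP1 and RPLP2), RPL3 and RPL4, which reach toward the catalytic center and into the exit tunnel, RPL5, which carries 5S rRNA with RPL11, RPS6, the substrate of S6 kinase, and RPS19, often mutated in Diamond-Blackfan anemia.

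**Figure D1:**
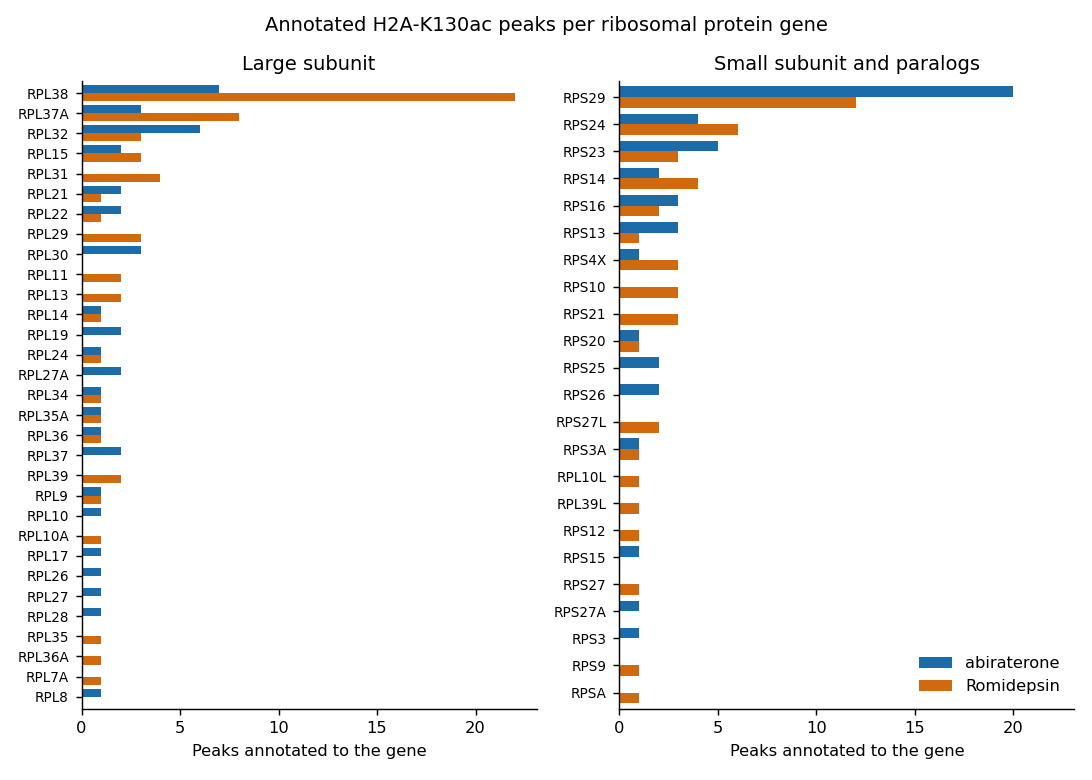
Number of H2A-K130ac peaks annotated to the ribosomal protein genes reported by name that had at least 1 peak, in the abiraterone list (blue) and the Romidepsin list (orange), with large subunit genes on the left and small subunit genes and paralogs on the right. RPS29 (20 and 12 peaks) and RPL38 (7 and 22) stand out, and no other gene exceeds 8 peaks in a list.

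A peak in the promoter class within 1 kb of the start was found for 3 of 77 subunit genes in the abiraterone list (3.90%, 0.811 to 11.0%) and for 4 of 77 in the Romidepsin list (5.19%, 1.43 to 12.8%). Of all protein-coding genes 8.09% and 12.1% had one, and both values lie within the members' intervals. The 7 genes were all different. A start-site peak in either list was thus found for 9.09% of the family (3.73 to 17.8%). Of all protein-coding genes 18.5% had one, just above that interval. In both lists it was found for 0 genes (upper bound 4.68%), where 1.64% of all protein-coding genes had one in both. All 4 genes of the Romidepsin list belonged to the large subunit, where the share was 8.70% (2.42 to 20.8%), while 0 of 31 small subunit genes had one (upper bound 11.2%).

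Under abiraterone, RPL10, a large subunit protein that joins late in assembly, had a peak over its start (chromosome X, 153627929 to 153628232) at a fold of 4.75, with 3.80 as its −log10 q. It ranked 1162 by fold in that list, a rank shared by 813 peaks. The peak of RPS26, which sits near the exit of the messenger RNA channel, also lay over the start (chromosome 12, 56435533 to 56435912), at a fold of 2.83 (−log10 q 1.57). RPL38, known from mouse for its part in the translation of Hox messenger RNAs, had its peak 743 bp downstream of the start (chromosome 17, 72200538 to 72200789), at a fold of 3.80 (−log10 q 2.66). Thus the abiraterone list held start-site peaks of different strength, RPL10 being the strongest.

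Under Romidepsin the start-site peaks had nearly equal folds, near the median of 2.61 of that list. RPL36 had one 179 bp downstream (chromosome 19, 5690525 to 5690847; fold 2.58), and RPL7A one 379 bp downstream (chromosome 9, 136215448 to 136215808; fold 2.61). RPL10A had one 789 bp downstream (chromosome 6, 35437365 to 35437719; fold 2.61). RPL11, which with RPL5 can bind MDM2 and so link ribosome assembly to p53, had one 533 bp upstream (chromosome 1, 24017397 to 24017736; fold 2.58). None of these 4 peaks covered the start itself, and each carried a −log10 q of 0.717, the median of that list. All of them were lost at a q of 0.05, a threshold that only 12.6% of all Romidepsin peaks passed. The abiraterone peaks of the 3 genes passed that threshold, as did 89.2% of all abiraterone peaks. Of these 3 peaks 2, at RPL10 and RPL38, had a −log10 q of at least 2 (all abiraterone peaks 24.9%).

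Just outside 1 kb, the nearest peaks were those of RPL30, 1013 bp upstream, in the abiraterone list and of RPL24, 1068 bp downstream, in the Romidepsin list. Up to 3 kb, the promoter classes reached 14 genes under abiraterone (18.2%, 10.3 to 28.6%) and 16 under Romidepsin (20.8%, 12.4 to 31.5%), beside 17.0% and 26.0% of all protein-coding genes. Only RPL15 and RPL38 were in both (2.60%; all protein-coding genes 6.34%), and 28 genes were in either (36.4%, 25.7 to 48.1%; all protein-coding genes 36.7%). By subunit these were 11 of 46 large (23.9%, 12.6 to 38.8%) and 3 of 31 small subunit genes (9.68%, 2.04 to 25.8%) under abiraterone, and 12 (26.1%, 14.3 to 41.1%) and 4 (12.9%, 3.63 to 29.8%) under Romidepsin, with overlapping intervals. The wider window thus gave shares near the background. Within 1 kb the shares were lower than the background, which lay within the interval in each list but above it for either list.

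A peak near a ribosomal protein gene can carry the name of a neighbor or of a small nucleolar RNA encoded in an intron. Regardless of the name, within 1 kb of the starts of the 52 subunit genes with a known start the same 3 and 4 genes were found. A start is known here only for a gene that a peak in either list names. The remaining 25 subunit genes were not searched, so that peaks near their starts under another name would be missed. Within 3 kb there were 16 and 19 genes, for which no share over all protein-coding genes is given. The genes gained by this count were RPL35A, where the abiraterone peak carried the name of IQCG, and RPS12, where a peak in each list was given to SNORA33. In the Romidepsin list RPL17 was gained through a peak named for SNORD58A and RPS25 through a peak without a symbol.

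**Figure D2:**
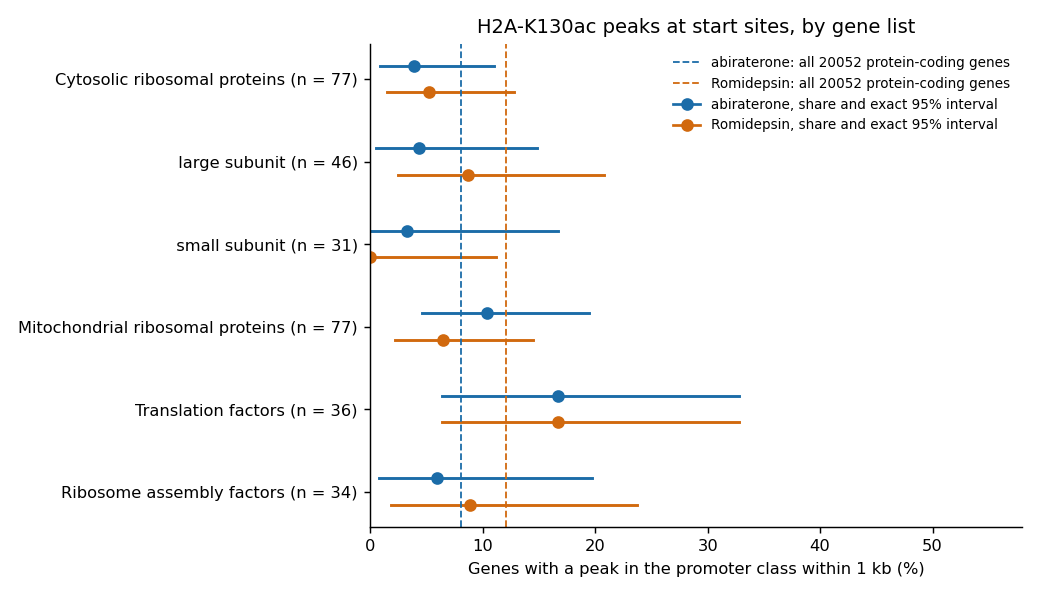
Share of genes with an H2A-K130ac peak in the promoter class within 1 kb, by gene list, in the abiraterone list (blue) and the Romidepsin list (orange). Points are shares, bars exact 95% binomial intervals, and dashed lines the shares over all 20052 protein-coding genes (8.09% and 12.1%), which cross the intervals of the 77 cytosolic ribosomal protein genes.

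Since these genes are short, they were set beside genes of similar length. Transcript length was known for the 52 subunit genes named in either list, with a median of 4494 bp and a range of 1333 to 23054 bp, against a median of 27445 bp over 15318 protein-coding genes. Between the members' 5th and 95th percentile, 1630 to 12010 bp, 3 of 46 members had a start-site peak in each list (6.52%, 1.37 to 17.9%). Of 3857 other protein-coding genes in this range 9.70% had one under abiraterone and 15.5% under Romidepsin, and over 4749 other genes of every type the shares were 8.89% and 14.6%. All of these values lie within the members' intervals, so that a difference was not detectable with this number of genes. Only genes named by a peak have a length here, so the shares are higher than those over all genes.

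The peaks within the transcript limits were counted in the same length range, whatever name the peak carried. The 46 members held 15 peaks under abiraterone and 14 under Romidepsin in 215 kb, or 6.97 (Poisson interval 3.90 to 11.5) and 6.50 (3.56 to 10.9) per 100 kb. The other protein-coding genes held 3.59 per 100 kb under abiraterone, just below the members' interval, and 6.93 under Romidepsin, within it. The 15 abiraterone peaks include 2 narrow peaks close together in RPL37, which the interval counts as independent. With so small a margin no difference is concluded. Under abiraterone 12 of the 46 members (26.1%, 14.3 to 41.1%) and 18.0% of the other genes had a peak within their limits, and under Romidepsin 14 (30.4%, 17.7 to 45.8%) and 34.0%.

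Most peaks given to ribosomal protein genes lay outside the genes. Distal intergenic peaks made up 56.7% (45.8 to 67.1%) of the members' peaks under abiraterone and 65.1% (55.4 to 74.0%) under Romidepsin, beside 64.8% and 60.8% for other genes of similar length and 48.4% and 48.0% for all peaks. Introns held 13.3% and 13.8%, compared with 16.6% and 16.8% for similar length and 39.6% and 37.9% for all peaks. The 3 promoter classes together held 18.9% (11.4 to 28.5%) and 16.5% (10.1 to 24.8%), compared with 12.9% and 14.7% for similar length. For all peaks they held 7.58% and 8.85%, below the members' intervals. In the abiraterone list the members' promoter peaks were mostly at 1 to 2 kb, a class with 10 of the 90 peaks (11.1%, 5.46 to 19.5%) against 3.87% for similar length. In both lists every other class share of the similar-length genes lay within the members' interval, for example the exon class under abiraterone with 6.67% (2.49 to 13.9%) for members and 2.67% for similar length. The largest class depends on 2 genes. Without RPS29 and RPL38 the members' distal share was 42.9% (30.5 to 56.0%) under abiraterone and 50.7% (38.9 to 62.4%) under Romidepsin. The abiraterone interval then lies below the 64.8% of similar length. However, these 2 genes, which have the most distal peaks, were left out after the data were seen. The similar-length genes were not trimmed in the same way, so no difference from them is concluded. The abiraterone exon share without RPS29 and RPL38 was 9.52% (3.58 to 19.6%), from the same 6 exon peaks over fewer peaks, and the same limit holds for it.

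**Figure D3:**
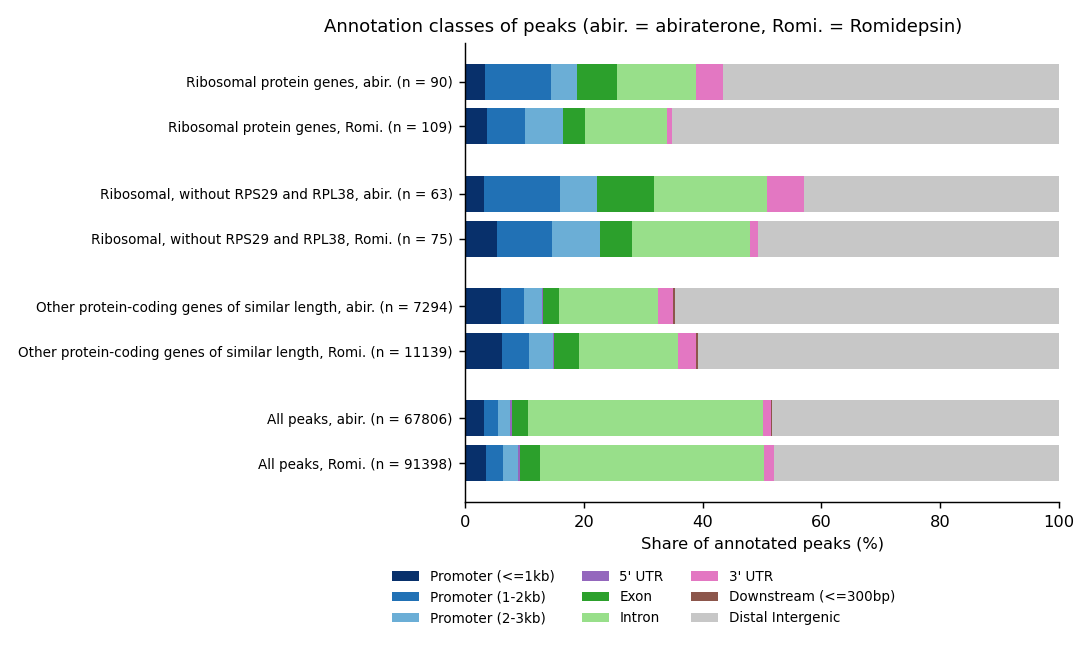
Share of annotated peaks in each annotation class, for ribosomal protein genes, the same without RPS29 and RPL38, other protein-coding genes of similar length and all peaks, in each list. The distal intergenic share of the ribosomal protein genes (56.7% and 65.1%) falls to 42.9% and 50.7% without RPS29 and RPL38, and their intron share is smaller than that of all peaks (39.6% and 37.9%).

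A peak named for a ribosomal protein gene was often inside another gene. Of the members' intron or exon peaks, 7 of 18 under abiraterone (38.9%, 17.3 to 64.3%) and 4 of 19 under Romidepsin (21.1%, 6.05 to 45.6%) were in the named gene itself, while over all peaks 73.1% and 71.3% were. For other protein-coding genes of similar length these shares were 16.5% and 22.2%. The peaks of RPS23, a protein of the decoding center, were all in introns of ATG10, an autophagy gene, 5 under abiraterone and 3 under Romidepsin, at 33670 to 148181 bp from the start. An intron of PIK3C2A held 1 peak given to RPS13 in each list. An exon of the mitochondrial protease gene LONP1 held the abiraterone peak of RPL36, with a fold of 4.72 at 10089 bp.

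Of the members' peaks 17 under abiraterone (18.9%), in 13 genes, and 15 under Romidepsin (13.8%), in 14 genes, were within the transcript limits of the named gene, promoter and 3′ UTR classes included. The intron and exon peaks among them were under abiraterone in RPL22 (2 peaks in an intron), RPL24, RPL32, RPL35A and RPL37 (2 in an exon), and under Romidepsin in RPL35, RPL35A, RPS14 and RPS24. RPL22, whose protein also binds viral RNAs, and RPL37 each owed their counts to a pair of peaks of minimum width. RPS14, a gene lost in the 5q- syndrome, had an intronic peak of fold 4.35 under Romidepsin. A further Romidepsin peak, at RPS10, was in an intron of the read-through gene RPS10-NUDT3.

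The members' peak of highest fold in the abiraterone list was that of RPL28, a large subunit protein, in the 3′ UTR class (chromosome 19, 55900310 to 55900541), 3010 bp downstream of the start and within the transcript limits. Its fold was 6.65 and its −log10 q 7.04, which placed it at rank 128 of 67806 peaks by fold, shared by 71 peaks. RPL10 at its start and RPL38 at 9746 bp upstream followed with 4.75. RPL30, at 8492 bp upstream, RPL36 in LONP1 and RPS24, at 1588 bp downstream, had 4.72. RPS24 is one of the small subunit genes mutated in Diamond-Blackfan anemia.

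In the Romidepsin list the highest fold among members was 5.16 (−log10 q 2.86), reached by peaks of RPL38, RPS24 and the paralog RPS27L. These ranked 1300 of 91398 peaks by fold, a rank shared by 458 peaks. The RPS24 peak was in the 3′ UTR class, 22297 bp downstream, and those of RPL38 and RPS27L were distal, 128208 and 12783 bp upstream. RPL39L, RPS16, RPS23 and RPS14 followed with 4.35. RPS24 was thus among the strongest members in both lists, at different positions of its 23054 bp transcript.

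The family's folds did not stand apart from the lists. The median fold was 2.84 under abiraterone and 2.61 under Romidepsin, where all peaks had 2.83 and 2.61. The folds fall on few values: 31 of the 109 Romidepsin peaks of the family (28.4%) had 2.61, as had 28.3% of all peaks. A −log10 q of at least 2 was reached by 28 of 90 members' peaks under abiraterone (31.1%, 21.8 to 41.7%; all peaks 24.9%) and by 3 of 109 under Romidepsin (2.75%; all peaks 2.73%). The 3 were the peaks at RPL38, RPS24 and RPS27L named before.

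The peaks lay closer to the starts than peaks did over the whole lists, and under abiraterone also closer than those of genes of similar length. The median distance was 11632 bp under abiraterone and 19643 bp under Romidepsin, against 49466 and 40628 bp over all peaks, and 36180 and 23662 bp for other protein-coding genes of similar length. Under abiraterone 45.6% of the members' peaks (35.0 to 56.4%) were within 10 kb, above the 27.4% for similar length and the 18.9% for all peaks, which lie below that interval. Under Romidepsin the share was 33.9% (25.1 to 43.6%), beside 33.4% and 21.9%. Upstream of the start were 31.1% of the members' peaks under abiraterone and 49.5% under Romidepsin, with 45.1% and 45.0% over all peaks. These shares depend on 2 genes. All 20 abiraterone and 12 Romidepsin peaks of RPS29 were downstream, and 5 of 7 abiraterone and all 22 Romidepsin peaks of RPL38 were upstream.

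**Figure D4:**
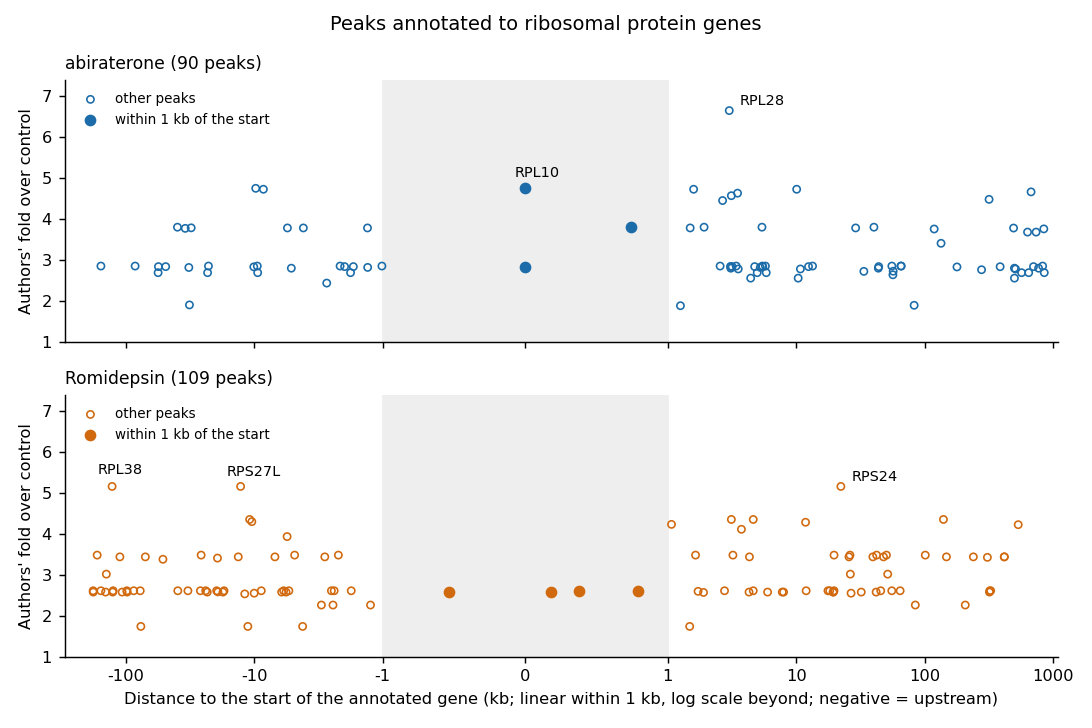
Distance to the start of the named gene (x axis, kb, linear within 1 kb and logarithmic beyond, negative upstream) and the authors' fold over the control (y axis) of every peak annotated to a ribosomal protein gene, with the abiraterone list above and the Romidepsin list below. Filled points are the 3 and 4 peaks within 1 kb of a start (shaded), and the highest folds, 6.65 at RPL28 and 5.16 at RPL38, RPS24 and RPS27L, lie outside that window.

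RPS29 and RPL38 together took 27 of the 90 abiraterone peaks and 34 of the 109 Romidepsin peaks, and most of these were far from the genes. RPS29, a zinc-binding protein of the small subunit, was given 20 peaks under abiraterone (Poisson interval 12.2 to 30.9) and 12 under Romidepsin (6.20 to 21.0). All of them were distal intergenic and downstream, at 40345 to 857129 bp and at 32136 to 536986 bp. Of the 20 abiraterone peaks 10 were farther away than any Romidepsin peak.

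RPL38 showed the opposite order, with 7 peaks under abiraterone (2.81 to 14.4) and 22 under Romidepsin (13.8 to 33.3), intervals that overlap. The Romidepsin list is the longer, with 91398 peaks against 67806, and 12.6% of its peaks reached a q of 0.05, against 89.2%. Of the 22 Romidepsin peaks only the one of fold 5.16 (−log10 q 2.86) reached it, while every abiraterone peak of RPL38 did. The 22 Romidepsin peaks were all upstream, at 2213 to 180103 bp, and 18 of them were beyond 50 kb. Of the 7 abiraterone peaks 4 were within 10 kb and 1 was beyond 50 kb. When close pairs of minimum-width peaks were counted as 1, RPL38 had 7 and 20 peaks and RPS29 had 19 and 11. Such peaks carry the name of the nearest start, and a link to either gene was not tested.

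**Figure D5:**
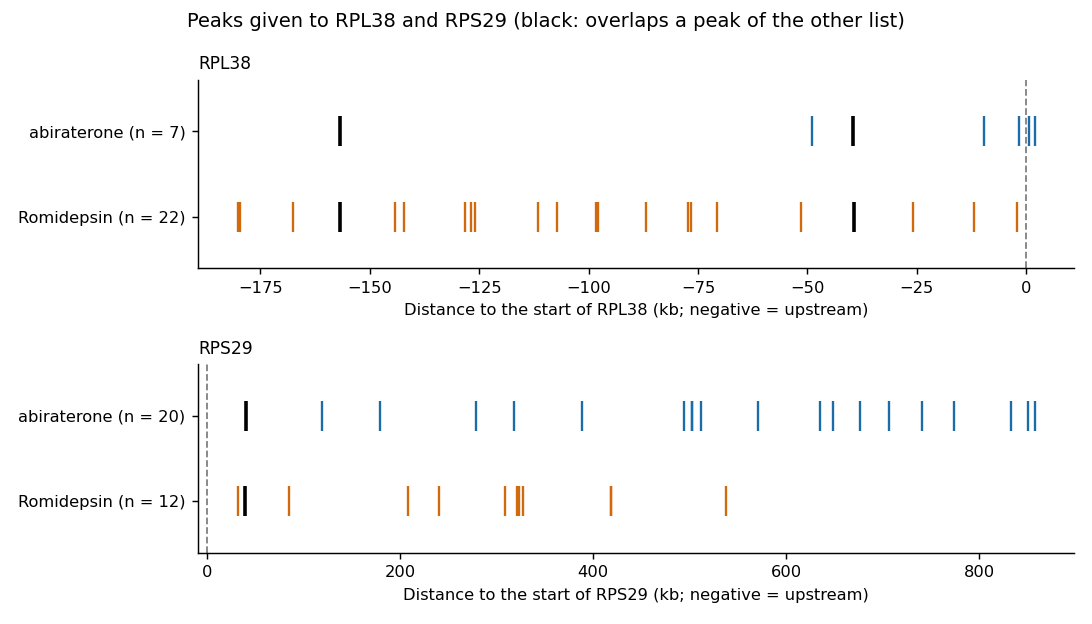
Positions of the peaks given to RPL38 (upper panel) and RPS29 (lower panel) relative to the start of the gene (kb, dashed line at 0), with abiraterone peaks in blue, Romidepsin peaks in orange and peaks overlapping the other list in black. The 22 Romidepsin peaks of RPL38 spread over 180103 bp upstream, and the 20 abiraterone peaks of RPS29 over 857129 bp downstream.

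At 7 sites a member's peak of one list overlapped a peak of the other by at least 1 bp, which is 7.78% (3.18 to 15.4%) of the members' abiraterone peaks and 6.42% (2.62 to 12.8%) of their Romidepsin peaks. Over all peaks 4.04% and 2.90% overlapped, values within these intervals. Only 1 of the 7 sites was inside a ribosomal protein gene: an exon of RPL35A, mutated in some patients with Diamond-Blackfan anemia, with an abiraterone peak at chromosome 3, 197680588 to 197681165 (fold 4.63, −log10 q 3.61) and a Romidepsin peak at 197680840 to 197681188 (fold 4.11, −log10 q 1.95), sharing 326 bp. The others were distal: 2 upstream of RPL38, and 1 each at RPS29, RPL37A, RPS16 and RPS20.

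RPL37A, a zinc-binding protein of the large subunit, had 3 and 8 peaks, all distal, the shared site lying 55645 bp downstream in the abiraterone list. RPS16, whose tail reaches the tRNA in the ribosome's P site, had its shared site 3408 bp downstream under abiraterone (fold 2.85) and 3126 bp under Romidepsin (fold 4.35). RPL32 had 6 and 3 peaks, of which an abiraterone peak of fold 1.88 at 1254 bp was the nearest to its start. RPL15, with 2 and 3 peaks, had 1 within 2 kb of the start in each list, upstream at 1979 bp under abiraterone and downstream at 1720 bp under Romidepsin. RPL9 had 1 peak in each list, at 1493 bp under abiraterone (fold 3.78) and in an intron of KLB, a coreceptor gene, under Romidepsin (fold 3.48). RPL14, RPL21, RPL34, RPS3A, RPS4X and RPS20, each with 1 to 3 peaks in a list, had folds from 1.90 to 3.80 under abiraterone and up to 3.94 under Romidepsin, below that of RPL35A in the same list.

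Some peaks came in pairs of minimum width (at most 130 bp wide) no more than 500 bp apart. Such pairs held 24 of the members' 90 abiraterone peaks (26.7%, 17.9 to 37.0%; all peaks 19.9%) and 14 of the 109 Romidepsin peaks (12.8%, 7.20 to 20.6%; all peaks 5.16%). They included both promoter peaks of RPL30 in the abiraterone list, at 1013 and 1308 bp upstream, but none of the 7 start-site peaks within 1 kb. With each pair counted as 1, the members had 78 and 102 peaks, RPL32 had 4 in place of 6 under abiraterone, RPL30 had 2 in place of 3, and RPL19 and RPL37 had 1 in place of 2.

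On chromosome 3 there were 11 members' peaks under abiraterone (12.2%, 6.26 to 20.8%) and 14 under Romidepsin (12.8%, 7.20 to 20.6%), in 5 and 8 genes. All peaks there numbered 5982 (8.82%) and 4688 (5.13%). The Romidepsin share of all peaks lies below the members' interval, and the abiraterone share within it. On chromosomes 16, 17, 19, 20 and 22 there were 17 (18.9%) and 31 (28.4%) members' peaks, beside 8.22% and 11.3% of all peaks, and the 7 and 22 peaks of RPL38 on chromosome 17 are among them.

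Other genes of protein synthesis were counted in the same way. Of all protein-coding genes 8.09% had a start-site peak under abiraterone, 12.1% under Romidepsin and 1.64% in both lists. The values for each treatment lie within the interval of each gene list below. Of the 77 mitochondrial ribosomal protein genes, whose products form the ribosome of the mitochondrion, 8 had a start-site peak under abiraterone (10.4%, 4.59 to 19.4%) and 5 under Romidepsin (6.49%, 2.14 to 14.5%); MRPL46 was in both. Of 36 translation initiation and elongation factors, 6 had one in each list (16.7%, 6.37 to 32.8%), and EEF1D, EIF3B and EIF3E were in both. Of 34 ribosome assembly and ribosomal RNA transcription genes, 2 had one under abiraterone, the nucleolar gene UTP3 and MYC, a regulator of ribosome production, and 3 under Romidepsin, UTP3, FBL, the rRNA methyltransferase, and POLR1A, the largest subunit of RNA polymerase I. The intervals of these lists overlap those of the cytosolic family in each treatment. Not all of the start-site peaks of the genes named here passed a q of 0.05. Under abiraterone those of EIF3B and UTP3 did. Those of MYC, EEF1D, EIF3E and MRPL46 did not, although 89.2% of all abiraterone peaks passed. Under Romidepsin a peak of EIF3B passed. Those of UTP3, FBL, POLR1A, EEF1D, EIF3E and MRPL46 did not, where 12.6% of all Romidepsin peaks passed.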

How the data were processed

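H2A-K130ac ChIP-seq peak lists of 2 C4-2B libraries (abiraterone, Romidepsin) were used. Reads were aligned with Bowtie 2 and peaks called with MACS2. The study's summary form speaks of the vehicle-treated sample as control, broad peaks at a q below 0.01 and duplicates, whose pooling is not stated, while the lists name input as control and hold narrow peaks, most with a larger q. The score deposited by the authors is the whole part of 10 times the −log10 p. Each peak's fold and its −log10 p and q come from the authors' peak caller and served only within a list. Annotated tables (67806 and 91398 rows) hold 1 peak fewer than the lists, since the first became the header, and the conservative and optimal tables of both libraries were identical. Of 18406 gene identifiers 18316 matched RefSeq (GRCh38.p14), used for names, and 53 more, among them RPL37, were matched by symbol. Peaks on chromosome 1 extend to 249191832, which hg19 but not GRCh38 allows.

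Promoter classes and distances are the authors' annotation. Gene limits and lengths are those of the annotated transcripts (the longest per gene). Shares carry exact 95% intervals (scipy 1.17.1, Python 3.11.15), and no test between treatments was made. Counting was tested on simulated peaks. Named were the genes with a peak within 1 kb, those in both lists, and those of the 5 highest folds per list; other genes named were chosen after their values were seen. Some genes are counted but not reported here by name. Members and lists were chosen with earlier results of these data known. Alternatives were q thresholds, the 3 kb window, other length ranges and denominators, and the nearest peak per gene.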

Additional observations from a re-analysis of the deposited data

How the results depend on the processing

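Of 40 alternatives to 13 results, 22 stayed within the interval of a share or within 1.5 times a count, and 18 did not. Those within it include 26 and 28 genes with a peak within 10 kb (36 and 37) and 63 and 75 members' peaks without RPS29 and RPL38 (90 and 109). Among peaks of −log10 q 2 or more, 16 subunit genes had any peak under abiraterone (36 with all peaks) and 2 under Romidepsin (37), and 0% had a Romidepsin start-site peak, as at a q of at most 0.05, where 9 genes kept any Romidepsin peak. Over the whole lists 24.9% of abiraterone and 2.73% of Romidepsin peaks reached a −log10 q of 2. A q of at most 0.05 was reached by 12.6% of all Romidepsin peaks. Shares of all protein-coding genes at these thresholds are not given. With promoters up to 3 kb the shares were 18.2% and 20.8% (3.90% and 5.19% within 1 kb). By distance alone 16 and 19 of the 52 genes with a known start had a peak within 3 kb, and the other subunit genes were not searched. The distal intergenic share (56.7% and 65.1%) was 36.1% and 32.5% for the nearest peak per gene, 53.8% at a q of at most 0.05 under Romidepsin, and, an alternative chosen after seeing the data like the count of close pairs as 1, 42.9% and 50.7% without RPS29 and RPL38. With the median transcript length, 9.84% and 16.1% of other genes of similar length had a start-site peak (8.89% and 14.6%). Of the 21 genes in both lists, 0 had a start-site peak in each, and 7 sites overlapped. The cause of these changes was not tested, beyond the smaller number of peaks or wider window that each alternative makes. No paired analysis was possible because a single library stands for each treatment. Depth per peak is unknown.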
